A study of Mus musculus with 8 samples.

Results

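Antigen presentation by major histocompatibility complex (MHC) class II was followed across the cells of a mouse tumor through 7 genes: H2-Aa, H2-Ab1, H2-Eb1, Cd74, H2-DMa, H2-DMb1 and Ciita. They were found by symbol in the deposited expression table, and all 7 of 7 were present among 23952 symbols. Where the table held several transcripts of a symbol, the one with the highest mean over the 8 libraries stood for the gene. All 7 passed the filter on low values, which asked for at least 1 RPKM, that is, reads scaled to transcript length and library size, in at least 2 libraries. The transcripts used were NM_010378 (H2-Aa), NM_207105 (H2-Ab1), NM_010382 (H2-Eb1), NM_010545 (Cd74), NM_010386 (H2-DMa), NM_010387 (H2-DMb1) and NM_001243761 (Ciita). The 5 H2 genes lie in the MHC locus on chromosome 17 (band B1, 17.98 cM), Cd74 on chromosome 18 (band E1, 34.41 cM) and Ciita on chromosome 16 (band A1), as annotated in the deposited table.

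Class II molecules are pairs of an alpha and a beta chain that carry peptides from endosomes to the surface of antigen-presenting cells, where CD4 T cells read them. The invariant chain, encoded by Cd74, fills the groove during assembly and is cut down to a short remnant, which the peptide editor H2-DM exchanges for antigen peptides. Ciita encodes the transactivator that does not bind DNA itself but docks on a fixed set of factors at class II promoters. Macrophages, dendritic cells and B cells are the main class II expressing cells of a tumor.

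The tumors were Lewis lung carcinomas, grown under the skin of both flanks of mice. The injected cancer cells were a G418-selected, dTomato-sorted pool carrying an expression vector for this red protein, and the hosts were transgenic Col1a1-GFP mice, in which green protein marks cells with an active collagen I gene. The sources used here give no host strain, age or sex. Fluorescent collagen (Alexa-labelled) was injected into the tumors 24 h before cells were stained with the viability dye Zombie aqua and an F4/80 antibody and sorted. The 4 groups had 2 libraries each: TAM (tumor-associated macrophages, called M2 in the labels and sorted as dTomato-negative, GFP-negative, F4/80-positive cells that held collagen), Fibroblast (GFP-positive), LLC (dTomato-positive) and Total tumor (whole tumors). TAM thus stands for collagen-laden macrophages, not for all macrophages of the tumor. For the Fibroblast and LLC sorts the labels name a color and no exclusion by F4/80. Separate animals for the libraries of a group are not stated, so every p-value measures the spread between these libraries alone, which may be technical.

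The estimated depth was 8.54 to 10.37 M reads in the libraries numbered 1 and 4.29 to 4.72 M reads in those numbered 2. Macrophage and fibroblast markers fitted the TAM and Fibroblast sorts, and no marker of the cancer cells was examined. All 15 macrophage markers were called higher in TAM than in Fibroblast, and all 8 fibroblast markers lower. Emr1, which encodes F4/80, had 162 and 229.6 RPKM in TAM, against 1.88 and 3.2 in Fibroblast and 0.507 and 8.74 in LLC. The LLC libraries also held fibroblast markers, with a summed level of 4012 and 5458 RPKM. This sum was 25199 and 23737 RPKM in Fibroblast and 2911 and 2388 RPKM in Total tumor. The markers in LLC were uneven, and Col3a1 alone had 2507 and 3142 RPKM there. Lum had 434 and 422 RPKM in LLC against 617 and 666 in Fibroblast. Far below Fibroblast were Col1a1 (76.2 and 192 against 5315 and 4200 RPKM) and Clec3b (8.66 and 17.7 against 992 and 937 RPKM). Total tumor 2 differed from Total tumor 1 with transcript length, at a median ratio of 2.13 for transcripts under 1500 bases and 0.684 for those of at least 3500 bases. Rescaling the libraries moved the share of called genes that were higher in the first-named group. For TAM minus Fibroblast it was 50.2% as deposited, 40.4% with upper-quartile rescaling and 49.2% with quantile normalization. For TAM minus LLC these shares were 35.9, 44.5 and 46.3%, for TAM minus Total tumor 32.2, 46.1 and 50.4%, for Fibroblast minus LLC 33.6, 60.0 and 47.5%, and for Fibroblast minus Total tumor 28.8, 56.0 and 47.9%.

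Class II promoters share an X box and a Y box in front of the start, the sites on which the Ciita protein is assembled. The stretches below are shown because 2 motifs that stand for these boxes recur at nearly the same spacing. They come from the members H2-Aa, H2-Eb1 and H2-DMb1 and from H2-Oa and H2-Ob, other chains of the locus. A link between the motifs and expression was not tested. The stretches were taken from RefSeq promoter windows of build GRCm38.p6 that were matched by symbol (the expression table itself was made on mm9). The capitals mark GNAAC, from the X box, and TGATTGG, from the Y box. The letters were chosen after the sequences had been seen, and they were searched on both strands in the 250 bases before each start. The H2-Aa stretch is chr17:34287857-34287914 on the minus strand. Those on the plus strand are chr17:34305766-34305822 for H2-Eb1, chr17:34153087-34153144 for H2-DMb1, chr17:34092293-34092350 for H2-Oa and chr17:34238808-34238862 for H2-Ob.
H2-Aa: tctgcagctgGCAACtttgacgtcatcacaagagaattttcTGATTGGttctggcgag
H2-Eb1: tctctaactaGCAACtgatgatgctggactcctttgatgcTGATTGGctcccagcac
H2-DMb1: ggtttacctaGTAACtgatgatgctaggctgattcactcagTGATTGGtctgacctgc
H2-Oa: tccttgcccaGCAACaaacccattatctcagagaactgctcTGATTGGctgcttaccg
H2-Ob: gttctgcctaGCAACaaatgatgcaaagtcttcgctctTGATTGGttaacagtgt

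The first motif began 31, 30 and 31 bases before the second in H2-Aa, H2-Eb1 and H2-DMb1. The pair, with starts 25 to 45 bases apart in this order, was found in 160 of 32851 promoter windows (0.487%). GNAAC was in 79.6% of the windows and TGATTGG in 7.23%. Of the 4 members with a window, H2-Aa, H2-Eb1 and H2-DMb1 held the pair, and neither of the H2-DMa windows did. Of the other chains of the locus, whose levels are given further on, H2-Oa, H2-Ob and H2-Eb2 held the pair too, while the H2-DMb2 window held both motifs but not the pair. The match of letters is a description of these windows and not a measured binding site.

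TAM carried by far the most class II RNA, and the classical chains and the invariant chain were among its most abundant transcripts. H2-Aa, the alpha chain of the I-A molecule, had 1164 and 2068 RPKM in TAM, 43.6 and 51.7 in Fibroblast, 10.4 and 48.4 in LLC and 259 and 308 in Total tumor. Its partner beta chain H2-Ab1 had 994 and 1859.9 RPKM in TAM, 38.6 and 39.8 in Fibroblast, 7.86 and 44.9 in LLC and 207 and 294 in Total tumor. H2-Eb1, the beta chain of the I-E molecule, had 704 and 1156 RPKM in TAM, 25.9 and 26.1 in Fibroblast, 6.13 and 34.2 in LLC and 142 and 170.4 in Total tumor. In all 3 chains the libraries fell into the same order: both TAM libraries on top, then both Total tumor libraries, then Fibroblast and LLC, which overlapped. In bulk RNA such as this, fewer cells of a type and less RNA per cell cannot be told apart.

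Cd74 was the most abundant member in every library. It had 3087 and 5459 RPKM in TAM, 101 and 122 in Fibroblast, 20.6 and 145 in LLC and 631 and 744 in Total tumor. Among the 23952 symbols it ranked 11 in TAM 1 and 1 in TAM 2, against 478 and 352 in Fibroblast, 3989 and 252 in LLC and 28 and 67 in Total tumor. The order of groups was that of the chains. The 7 genes together held 1.37 and 2.72% of the summed RPKM in TAM, 0.0647 and 0.0777% in Fibroblast, 0.0136 and 0.0883% in LLC and 0.399 and 0.327% in Total tumor.

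The peptide editor stood an order of magnitude below the chains it serves and followed the same pattern. H2-DMa, its alpha chain, had 111 and 179 RPKM in TAM, 2.68 and 4.21 in Fibroblast, 1.75 and 5.78 in LLC and 18.7 and 32.4 in Total tumor. H2-DMb1, a beta chain, had 76.5 and 152 RPKM in TAM, 3.99 and 5.11 in Fibroblast, 1.05 and 4.19 in LLC and 16.5 and 21.9 in Total tumor. Again Fibroblast and LLC overlapped, below Total tumor and far below TAM. The H2-DMb1 level is uncertain in 1 respect: 369 of its 1355 stretches of 50 bases (27.2%), the read length, also occur in its near copy H2-DMb2, and the sources used here do not say how such reads were counted. H2-Aa, H2-Ab1, H2-Eb1, H2-DMa and Cd74 shared no such stretch with another gene.

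Ciita was the least abundant member and the only one whose groups did not keep this order. It had 5.82 and 22.6 RPKM in TAM, 0.625 and 0.456 in Fibroblast, 0.189 and 0.688 in LLC and 6.295 and 0.875 in Total tumor. Total tumor 1 thus lay above TAM 1, while Total tumor 2 lay only just above Fibroblast and LLC. At the estimated depths these levels correspond to about 196 and 398 reads in TAM, 26 and 9 in Fibroblast, 8 and 12 in LLC and 248 and 16 in Total tumor, so the low groups rest on few reads. The table lists 3 Ciita transcripts, and the other two stood slightly lower, with the widest relative gap in LLC 2 (0.578 and 0.523 RPKM).

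**Figure D1:**
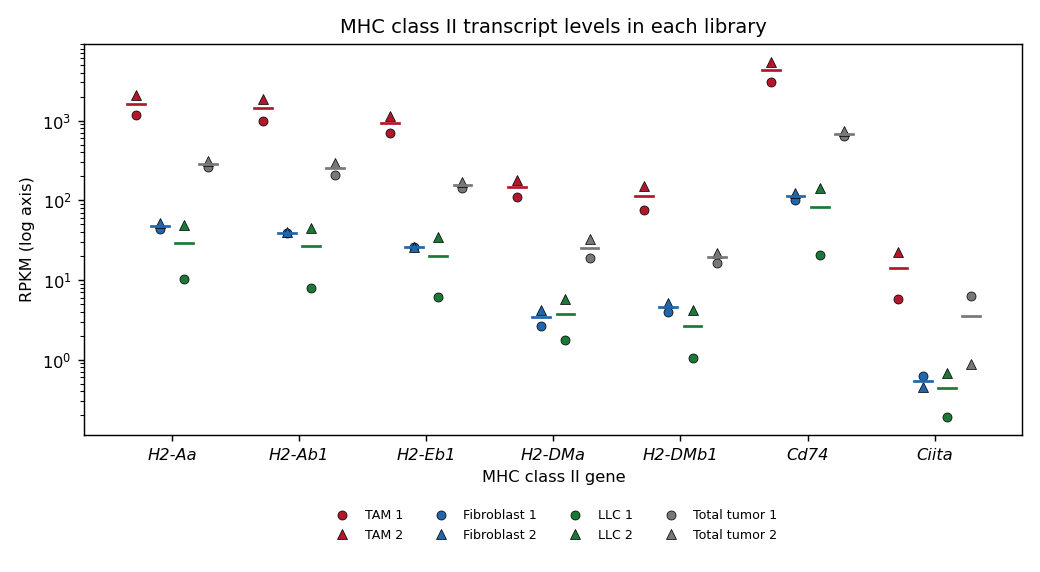
RPKM (log axis) of the 7 MHC class II genes in each of the 8 libraries; circles are replicate 1, triangles replicate 2 and bars the mean of a group. TAM lies on top in every gene but Ciita, in which Total tumor 1 (6.295 RPKM) lies above TAM 1 (5.82 RPKM).

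TAM against Fibroblast asks how class II expression of collagen-laden macrophages compares with that of the collagen-producing cells. All 7 genes were higher in TAM by limma's test (Benjamini-Hochberg adjusted p under 0.05 over 13311 genes), beside 17.4% of all genes tested that were called higher and 34.7% called in either direction. The 2 groups did not overlap in any of the 7. The share of all genes tested that showed no overlap was not counted, here or in the comparisons below. On the log2(RPKM + 1) scale, which understates changes of low genes, the difference was 5.00 for H2-Aa (SE 0.63, adjusted p = 0.000591), 5.08 for H2-Ab1 (SE 0.70, 0.00089) and 5.06 for H2-Eb1 (SE 0.66, 0.000658). It was 5.19 for Cd74 (SE 0.80, adjusted p = 0.00156), 5.02 for H2-DMa (SE 0.49, 0.000195) and 4.30 for H2-DMb1 (SE 0.49, 0.000354). The smallest of these 6 differences was that of H2-DMb1 and the largest that of Cd74; differences between genes were not tested. Ciita differed by 3.04 (SE 0.73, adjusted p = 0.0137). Its call ended with no filter (adjusted p = 0.0982) and without TAM 2 (0.0897), Fibroblast 1 (0.0771) or Fibroblast 2 (0.0921), while the other 6 calls held in all 20 alternatives. The median difference of the 7 genes was 5.02, against 0.13 over all genes tested.

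TAM against LLC sets the macrophages beside the cancer cells, and it gave the largest differences. All 7 genes were higher in TAM, beside 15.4% of all genes called higher and 42.9% called in either direction. The log2 differences were 6.03 for H2-Aa (95% confidence interval 4.56 to 7.51), 6.08 for H2-Ab1 (4.45 to 7.71), 5.83 for H2-Eb1 (4.31 to 7.36) and 6.20 for Cd74 (4.33 to 8.05). They were 5.04 for H2-DMa (3.90 to 6.17) and 5.06 for H2-DMb1 (3.92 to 6.20), and these 6 adjusted p-values lay between 0.000239 and 0.000714. The Ciita difference of 3.16 (1.45 to 4.87, adjusted p = 0.0106) lost its call with no filter (0.0819) and without TAM 2 (0.0679) or LLC 1 (0.0709). The median over the 7 genes was 5.83, against -0.38 over all genes tested. LLC 1 held the lowest level of every member, and without LLC 1 the H2-Aa difference was 4.97, while without LLC 2 it was 7.09.

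TAM against Total tumor shows how far the sort enriched class II RNA over the whole tissue. The 3 chains, Cd74 and both H2-DM genes were higher in TAM, 6 of 7 genes, beside 11.3% of all genes called higher and 35.2% called in either direction. Their log2 differences lay close together, from 2.45 for H2-Aa (SE 0.63, adjusted p = 0.0208) and H2-DMb1 (SE 0.49, 0.00807) to 2.58 for Cd74 (SE 0.80, 0.0398). H2-Ab1 differed by 2.46 (adjusted p = 0.03), H2-Eb1 by 2.53 (0.0211) and H2-DMa by 2.47 (0.0077). Ciita, whose groups overlapped, had a difference of 1.78 (SE 0.73) that did not pass (adjusted p = 0.0977). It passed without Total tumor 1 (log2 2.76, adjusted p = 0.0186). The number of members called was less firm than in the comparisons with sorted cells: it was 2 without TAM 1, 0 without TAM 2, 2 without Fibroblast 1 or Fibroblast 2 and 3 without Total tumor 1. The difference was above 0 for all 7 genes under each of the 20 alternatives. The median over the 7 genes was 2.46, against -0.36 over all genes tested.

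**Figure D2:**
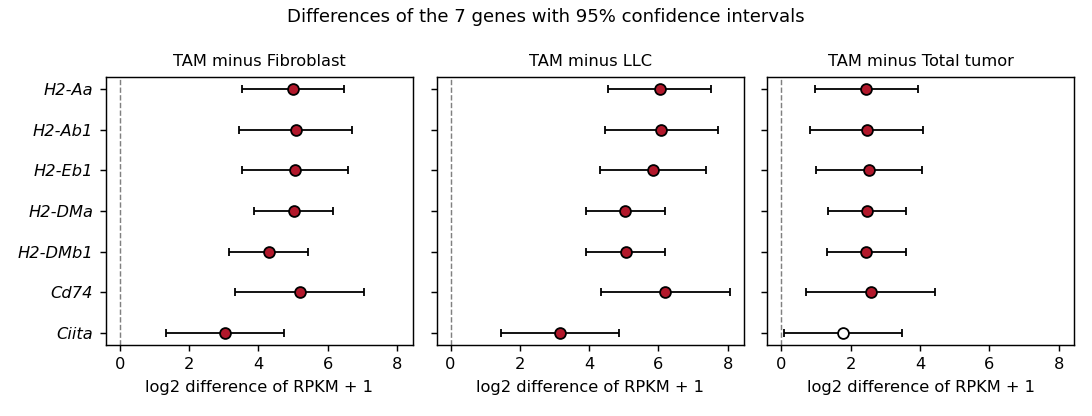
Log2 difference of RPKM + 1 between TAM and each other group for the 7 genes, with 95% confidence intervals from limma; filled points passed an adjusted p of 0.05, the open point did not. The 6 genes other than Ciita lie between 4.30 and 5.19 against Fibroblast, between 5.04 and 6.20 against LLC and between 2.45 and 2.58 against Total tumor.

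Fibroblast and LLC carried class II RNA at a few percent of the TAM level. As a share of the TAM mean, the 7 genes had a median of 2.71% in Fibroblast 1 and 2.91% in Fibroblast 2, 0.659% in LLC 1 and 3.66% in LLC 2, and 14.8 and 19.1% in Total tumor 1 and 2. The 15 macrophage markers moved with them: their medians were 1.15 and 1.64% in Fibroblast, 0.442 and 3.02% in LLC and 9.56 and 22.7% in Total tumor. Summed, these markers reached 221 and 287 RPKM in Fibroblast and 95.6 and 546 RPKM in LLC, against 20763 and 16251 RPKM in TAM, and none was at 0 in any library. Their part in the class II levels of Fibroblast, LLC and Total tumor was not tested. In Fibroblast the class II median was above that of the macrophage markers in both libraries, and the 2 sets overlapped in few genes. The class II genes spanned 1.85 to 4.41% in Fibroblast 1 and 2.79 to 4.47% in Fibroblast 2. Mertk stood at 4.37 and 4.61%. The next highest marker was Csf1r, the receptor that macrophages need for survival, at 2.16 and 2.18%. Only H2-DMa in Fibroblast 1 (1.85%) lay below Csf1r.

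**Figure D3:**
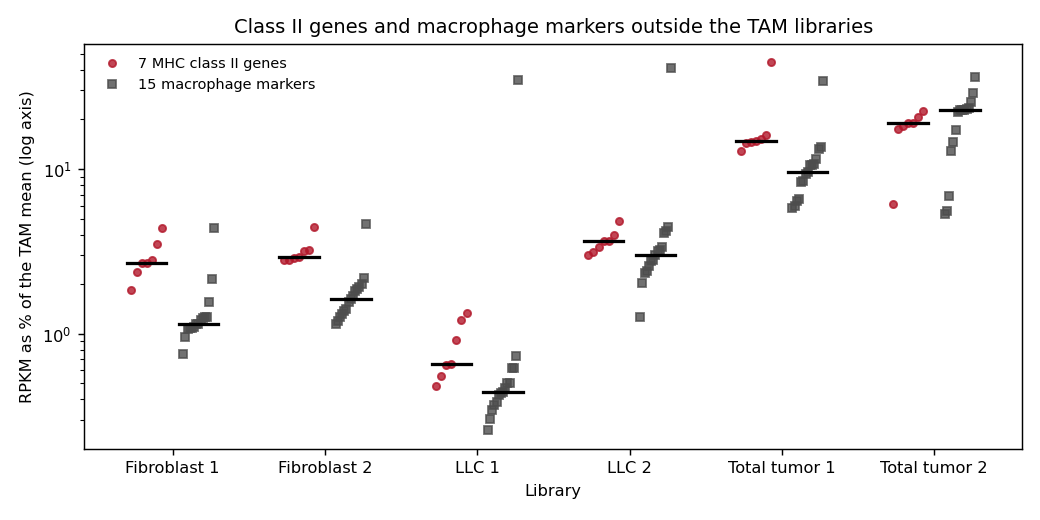
RPKM as a percentage of the TAM mean (log axis) for the 7 class II genes (red) and 15 macrophage markers (gray) in the 6 libraries outside TAM; each point is a gene and bars are medians. Both sets are lowest in LLC 1 (medians 0.659 and 0.442%) and highest in Total tumor; the gray point at 34.7 and 41.2% in LLC is Mertk.

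Fibroblast minus LLC gave no call among the 7 genes, by adjusted p or at an unadjusted p under 0.05, beside 38.6% of all genes called (13.0% higher and 25.7% lower). The groups overlapped in all 7, and the median difference was 0.77, against -0.46 over all genes. The log2 difference of H2-Aa was 1.03 with a 95% confidence interval of -0.44 to 2.51, that of Cd74 1.00 (-0.86 to 2.86) and that of H2-DMa 0.02 (-1.12 to 1.16). These intervals reach further toward Fibroblast than toward LLC for H2-Aa and Cd74 and are nearly symmetric for H2-DMa. The result turned on the LLC libraries: LLC 2 exceeded LLC 1 in all 7 genes, by a median factor of 4.65 (3.31 to 7.02), and in all 15 macrophage markers, by a median factor of 6.66 (1.19 to 17.2). Without LLC 2, H2-Aa (log2 2.09, adjusted p = 0.024), H2-Ab1 (2.18, 0.024), H2-Eb1 (1.92, 0.0198) and Cd74 (2.38, 0.0271) were called higher in Fibroblast. Without LLC 1 the same 4 differences were -0.03, -0.19, -0.38 and -0.37, and none passed.

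All Fibroblast and LLC libraries lay below both Total tumor libraries in every member, a separation whose share over all genes was not counted. In Fibroblast minus Total tumor, 6 of 7 genes were called lower, beside 30.0% of all genes called lower and 42.1% in either direction. The differences ran from -2.62 for H2-Ab1 (SE 0.70, adjusted p = 0.0204) to -1.86 for H2-DMb1 (SE 0.49, 0.0195), and Ciita did not pass at -1.27 (SE 0.73, 0.198). The median of the 7 was -2.55, against -0.51 over all genes. Leaving out Fibroblast 1, Fibroblast 2 or Total tumor 2 left 0, 1 and 3 members called, and without Total tumor 2 Ciita passed (log2 -2.25, adjusted p = 0.0381). In LLC minus Total tumor, 5 of 7 genes were called lower, beside 2.30% of all genes called lower, 0.0526% higher and 2.35% in either direction. The values were -3.58 for H2-Aa (adjusted p = 0.0357), -3.62 for H2-Ab1 (0.0465), -3.31 for H2-Eb1 (0.0499), -2.57 for H2-DMa (0.0437) and -2.62 for H2-DMb1 (0.0416). Cd74 at -3.61 (0.0715) and Ciita at -1.38 (0.608) did not pass. The median of the 7 was -3.31, against -0.03 over all genes. These calls were close to the threshold: none remained without TAM 1, TAM 2, Fibroblast 1, Fibroblast 2, LLC 1 or Total tumor 2, while every member was below Total tumor in both LLC libraries.

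TAM 2 lay above TAM 1 in every class II gene, while macrophage markers went both ways. In the 7 genes TAM 2 exceeded TAM 1 by 1.61 to 3.88 times (median 1.78), with the largest ratio in Ciita. Of the 15 macrophage markers 6 were higher and 9 lower in TAM 2 (median ratio 0.833), and the complement gene C1qa, at 3789 RPKM in TAM 1 and 2436 RPKM in TAM 2, went opposite to Cd74. Other lists moved between these libraries as well. Of 13 dendritic cell markers 9 were higher in TAM 2 (median ratio 1.48), all 8 fibroblast markers were higher (median 4.33, summed 140.1 RPKM in TAM 1 and 682 in TAM 2), and all 10 B cell markers were lower (median 0.331). With 1 library on each side the ratios have no test, and the part of these cell types in the class II ratio was not tested. The ratio of TAM 2 to TAM 1 also rose with transcript length. Its median was 0.804 under 1500 bases, 0.962 for 1500 to 3500 bases and 1.21 for at least 3500 bases. Ciita (3953 bases) belongs to the longest class and the other class II genes to the shorter ones. The part of transcript length in the class II and marker ratios was not tested. Of the dendritic cell list, Flt3 (0.674 and 0.614 RPKM), Zbtb46 (0.522 and 0.333) and Xcr1 (0.026 and 0.501) were below 1 RPKM in TAM 1 and TAM 2. Other genes of that list were not: Batf3 had 15.3 and 19.5 RPKM, Itgax 9.66 and 14.9, Ccr7 5.44 and 8.03 and Fscn1 12.8 and 18.5. None of the 13 was at 0 in either library. Fscn1 was not particular to TAM, as it had 213 and 167 RPKM in LLC.

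**Figure D4:**
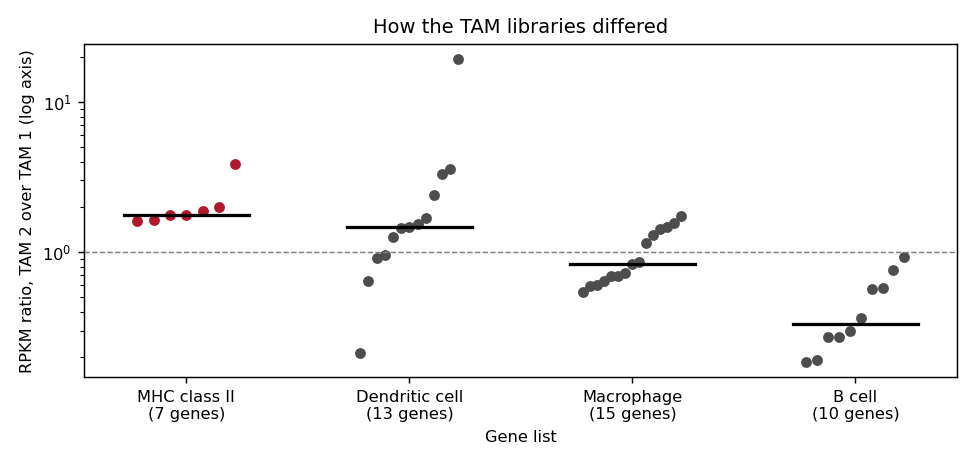
Ratio of RPKM in TAM 2 over TAM 1 (log axis) for the 7 class II genes and for dendritic cell, macrophage and B cell markers; each point is a gene, bars are medians and the dashed line marks equal levels. The class II genes all lie above 1 (1.61 to 3.88), the B cell markers all below it.

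The chains and the invariant chain varied least relative to each other, the editor more and Ciita most. The ratio of Cd74 to H2-Aa lay between 1.98 and 2.99 in all 8 libraries, although H2-Aa itself ranged over 10.4 to 2068 RPKM. H2-Aa over H2-Ab1, the 2 chains of I-A, lay between 1.05 and 1.32, and H2-Eb1 over H2-Ab1 between 0.580 and 0.780. H2-DMb1 over H2-Aa lay between 0.0638 and 0.101 and H2-DMa over H2-Aa between 0.0614 and 0.168, a 2.73-fold range. H2-DMb1 over H2-DMa was 1.49 and 1.22 in Fibroblast and between 0.603 and 0.883 in the other 6 libraries. The Fibroblast ratios rest on about 58 and 34 reads of H2-DMb1 and 46 and 33 of H2-DMa. Ciita over H2-Aa varied 8.58-fold, with the highest value in Total tumor 1 (0.0243) and the lowest in Total tumor 2 (0.00284). Over the 8 libraries, each of the other 6 members had a Pearson correlation of 0.984 to 0.998 with the mean log2 level of the rest, and Ciita one of 0.880. These points are the same 8 libraries in 4 groups and share their depth and cell composition, so the correlations describe the pattern and carry no test.

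The remaining chains of the class II locus differed between the Total tumor libraries as Ciita did. H2-DMb2, the second beta chain of the editor, had 12.9 and 21.7 RPKM in TAM, 0.863 and 0.27 in Fibroblast, 0.123 and 0.597 in LLC and 12.7 and 1.63 in Total tumor. H2-Oa, the alpha chain of H2-O, which restrains H2-DM and is known from B cells, had 7.83 and 1.93 RPKM in TAM, 0.368 and 0.606 in Fibroblast, 0.184 and 0.446 in LLC and 6.89 and 1.62 in Total tumor. Its partner H2-Ob had 7.31 and 3.27 RPKM in TAM, 0.433 and 0.237 in Fibroblast, 0.289 and 0.786 in LLC and 9.71 and 1.35 in Total tumor. All 3 were high in TAM 1 and Total tumor 1 and below 1 RPKM in Fibroblast and LLC. In TAM 2 only H2-DMb2 was higher than in TAM 1. H2-Eb2 reached 1.72 RPKM in TAM 2 and 1.66 in Total tumor 1, and H2-Ea-ps, the alpha chain that would pair with H2-Eb1, was listed at 0 in all 8 libraries. H2-DMb2 over H2-DMb1 was 0.769 in Total tumor 1 and at most 0.217 in the other 7 libraries. The shared stretches make both genes' reads uncertain, 32.8% of the H2-DMb2 stretches occurring in another gene.

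B cell markers moved with these genes between the Total tumor libraries. Their sum over 10 genes was 81.2 and 28.03 RPKM in TAM, 3.75 and 2.28 in Fibroblast, 1.89 and 1.87 in LLC and 82.6 and 5.11 in Total tumor. Fcer2a, a low-affinity IgE receptor of B cells, had 7.24 and 1.38 RPKM in TAM and 10.9 and 0 RPKM in Total tumor. None of the 10 markers was at 0 in Total tumor 1, where the lowest had 2.44 RPKM, while in Total tumor 2 several were listed at 0, among them Pax5, Blk, Cr2 and Fcer2a. Between TAM 1 and TAM 2 the markers went with H2-Oa and H2-Ob and against Ciita and H2-DMb2. The Ciita transcript is 3953 bases long, in the class of transcripts whose level in Total tumor 2 was at a median of 0.684 of Total tumor 1, whereas the H2 members and Cd74 measure 1128 to 1669 bases. H2-Oa (1088 bases) and H2-DMb2 (1424 bases) belong to the shorter class, whose median ratio was 2.13. These 2 genes stood in Total tumor 2 at 0.235 and 0.128 of Total tumor 1. H2-Ob, at 2670 bases, stood at 0.139, and transcripts of 1500 to 3500 bases had a median of 1.22. All 8 T cell markers were lower in Total tumor 2 as well, at a median ratio of 0.148. The parts of B cells, T cells and transcript length in the Ciita, H2-Oa, H2-Ob and H2-DMb2 values were not tested.

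**Figure D5:**
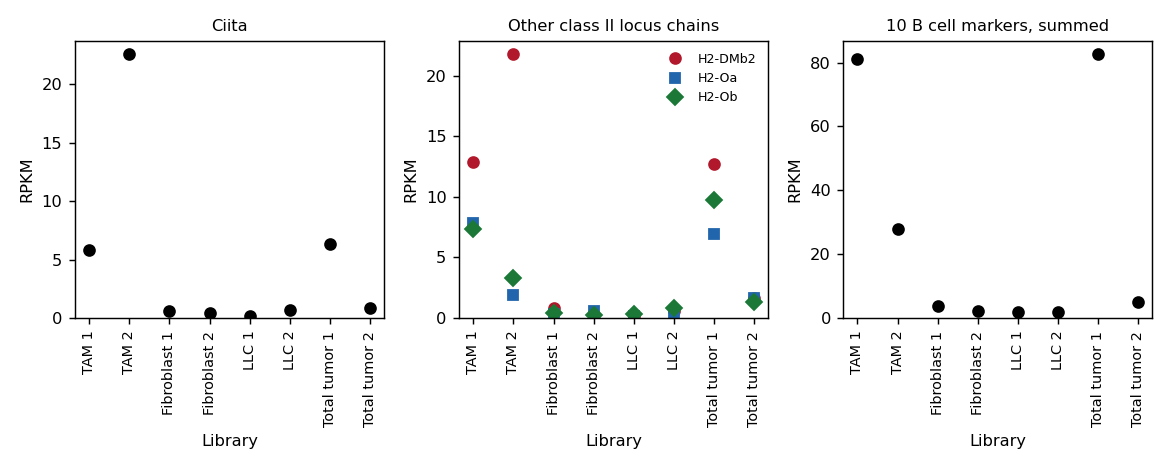
RPKM in each of the 8 libraries of Ciita (left), of H2-DMb2, H2-Oa and H2-Ob (middle) and of 10 B cell markers summed (right). All 3 panels show TAM 1 and Total tumor 1 well above Total tumor 2; Ciita and H2-DMb2 are highest in TAM 2 (22.6 and 21.7 RPKM), the B cell sum in Total tumor 1 (82.6 RPKM).

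By limma's test, 2 of the 4 tested chains outside the 7 were higher in TAM than in Fibroblast (median log2 1.97 over the 4), 3 of 4 than in LLC (1.97) and none than in Total tumor (0.24), none of them at an unadjusted p under 0.05. The shares of all genes called higher were 17.4, 15.4 and 11.3%. H2-DMb2 differed by 3.53 from Fibroblast (adjusted p = 0.00585, 0.0591 without Fibroblast 2) and by 3.73 from LLC (0.00437). The calls of H2-Ob (2.16 against Fibroblast, adjusted p = 0.0396, and 1.97 against LLC, 0.0465) ended without either library of TAM, Fibroblast or LLC, at adjusted p up to 0.219 and 0.231. H2-Oa (1.96 against LLC, 0.0385) kept its call without TAM 2 or either Total tumor library and lost it without each of the rest, at up to 0.224, and with the length correction (0.0894).

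Few of the factors on which Ciita docks were called. Of 7 genes (the RFX subunits Rfx5, Rfxap and Rfxank that bind the X box, the NF-Y subunits Nfya, Nfyb and Nfyc that bind the Y box, and Creb1), all were at or above 1 RPKM in every library. Nfya alone was called higher in TAM than in Fibroblast (median log2 difference 0.32 over the 7, 0.13 over all genes). Nfyb alone was called lower in TAM than in LLC (median -0.15, against -0.38 over all genes) and than in Total tumor (-0.49, against -0.36). Over all genes 17.4% were called higher in TAM than in Fibroblast, 27.5% lower than in LLC and 23.9% lower than in Total tumor. A call in 1 of 7 genes was no larger than any of these shares. Nfya had 20.7 and 25.3 RPKM in TAM, 9.96 and 13.3 in Fibroblast, 22.7 and 24.5 in LLC and 22.3 and 18.4 in Total tumor. Nfyb had 6.83 and 7.02 RPKM in TAM, 6.34 and 7.12 in Fibroblast, 14.99 and 13.4 in LLC and 13.3 and 12.8 in Total tumor. TAM and Fibroblast overlapped in Nfyb, and both lay below LLC. The Nfya call (log2 0.93 against Fibroblast, adjusted p = 0.0194) ended without TAM 1 (0.0514), TAM 2 (0.117) or Fibroblast 1 (0.142) and under both rescalings (up to 0.104). The Nfyb calls were -0.94 against LLC (0.0125) and -0.82 against Total tumor (0.0257). The first ended without either TAM library or either LLC library, at up to 0.0872, and the second without any 1 of the TAM, Fibroblast or LLC libraries, at up to 0.107. Quantile normalization ended the first as well (log2 -0.56, 0.0721). The second also ended under upper-quartile rescaling (-0.54, 0.13), quantile normalization (-0.41, 0.186) and the replicate block (0.0512).

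The genes that act on Ciita itself were mixed. Of 12 tested (among them the interferon gamma receptor and its kinases, Irf1 and Irf2, Socs1, and the lineage factors Spi1, Irf8, Irf4 and Prdm1), 5 were higher and 1 lower in TAM than in Fibroblast, 7 higher than in LLC and 5 higher than in Total tumor. Their median log2 differences were 0.80, 0.95 and 0.97. Among all genes tested, 17.4% were called higher and 17.3% lower in TAM than in Fibroblast. The shares called higher were 15.4% against LLC and 11.3% against Total tumor. Spi1, which encodes the myeloid factor PU.1, had 363 and 300.05 RPKM in TAM, 4.05 and 6.19 in Fibroblast, 1.67 and 11.6 in LLC and 38.7 and 125 in Total tumor. It differed from Fibroblast by 5.78 (adjusted p = 0.000686) and from LLC by 5.84 (0.000725). Irf8, a partner of PU.1, had 83.2 and 64.6 RPKM in TAM, 2.45 and 3.81 in Fibroblast, 1.5 and 4.54 in LLC and 18.6 and 25.7 in Total tumor. Its differences were 4.19 (0.000199), 4.32 (0.000229) and, against Total tumor, 1.70 (0.0161, and 0.0997 without TAM 1 or 0.0579 without TAM 2). Both lineage factors were highest in TAM, then Total tumor, as the class II genes were. TAM 1 lay above TAM 2 in both, where the class II genes had TAM 2 on top.

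Ifng, the interferon that induces Ciita, was listed at 0 in both TAM libraries and was not tested. Irf4, a lymphoid and myeloid relative of Irf8, was highest in Fibroblast, with 3.64 and 6.39 RPKM in TAM, 29.7 and 27.6 in Fibroblast, 0.411 and 0.548 in LLC and 4.87 and 0.679 in Total tumor. It was the member of this list that was lower in TAM than in Fibroblast (log2 -2.34, adjusted p = 0.0124), and this was lost without TAM 1 (0.0927), Fibroblast 1 (0.0832) or Fibroblast 2 (0.0747). Fibroblast exceeded LLC in Irf4 by 4.33 (0.00112) and Total tumor by 3.24 (0.00369).

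Most endosomal enzymes that prepare peptides and trim the invariant chain were higher in TAM. Of 8 tested, 6 were higher and none lower in each of the comparisons with Fibroblast, LLC and Total tumor (median log2 2.995, 3.23 and 2.18). In the same comparisons 17.4, 15.4 and 11.3% of all genes were called higher. All 6 calls against Total tumor (Ctsb, Ctsd, Ctss, Ctsz, Ifi30 and Lgmn) ended in at least 1 of the 20 alternatives, at adjusted p up to 0.157, among them the fit of only the 2 groups. Over all pathway lists, 3 of 20 calls in TAM minus Total tumor held in every alternative, against 14 of 22 in TAM minus Fibroblast and 20 of 26 in TAM minus LLC. Ctss, the cathepsin that makes the last cuts in the invariant chain, had 2846 and 2627 RPKM in TAM, 29.4 and 45.04 in Fibroblast, 13.2 and 95.1 in LLC and 268 and 477 in Total tumor. It differed from Fibroblast by 6.19 (adjusted p = 0.000623), from LLC by 6.21 (0.000681) and from Total tumor by 2.93 (0.0247). The last call ended without either TAM library, either Fibroblast library or Total tumor 1, at up to 0.106. Ifi30, the thiol reductase that opens disulfide bonds of antigens, had 988 and 931 RPKM in TAM and 38.1 and 36.4 in Fibroblast (log2 4.65, 0.00014). Lgmn, the endopeptidase legumain, stood in TAM at 2178 and 1865 RPKM, against 76.9 and 124 in LLC and 226 and 462 in Total tumor (log2 4.35, 0.000265, against LLC and 2.64, 0.00399, against Total tumor). Ctsl, a cathepsin of the thymic cortex and many other cells, was not called; TAM had 946 and 723 RPKM and LLC 1125 and 1089.8 RPKM. Ctss, Ifi30 and Lgmn were slightly higher in TAM 1 than in TAM 2, unlike the class II genes.

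Genes that control class II at the surface came next. Of 3 turnover genes 2 were higher in each TAM comparison (median log2 4.12, 3.54 and 1.95 over the 3), March1, a ubiquitin ligase that removes class II from the surface, and Cd83, which opposes it. The shares of all genes called higher were 17.4% against Fibroblast, 15.4% against LLC and 11.3% against Total tumor. March1 had 25.7 and 36.0 RPKM in TAM, 0.512 and 1.18 in Fibroblast, 1.0 and 2.66 in LLC and 6.82 and 2.63 in Total tumor, and differed by 4.12 (adjusted p = 0.000361), 3.54 (0.000826) and 2.56 (0.00586). Cd83 had 49.8 and 28.5 RPKM in TAM, 0.853 and 0.984 in Fibroblast, 0.584 and 2.72 in LLC and 13.5 and 5.93 in Total tumor, and differed by 4.33 (0.000465), 3.99 (0.000749) and 1.95 (0.0235). The last call ended without either TAM library, either Fibroblast library or Total tumor 2, at up to 0.141. March1 was higher in TAM 2 than in TAM 1, as the class II genes were, and Cd83 was lower.

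Of 5 tested costimulatory genes, 3 were higher in TAM than in Fibroblast, all 5 than in LLC and 4 than in Total tumor (median log2 1.23, 3.52 and 1.49). Among all genes tested these shares were 17.4, 15.4 and 11.3%. Cd86, the ligand of CD28 and CTLA-4, had 28.1 and 25.8 RPKM in TAM, 0.418 and 0.666 in Fibroblast, 0.456 and 0.828 in LLC and 6.55 and 5.52 in Total tumor. It differed by 4.18 (adjusted p = 0.000104), 4.10 (0.000119) and 1.99 (0.00203). Cd40, the receptor for T cell help, had 33.4 and 28.2 RPKM in TAM, 0.749 and 1.77 in Fibroblast, 0.403 and 1.12 in LLC and 4.01 and 8.62 in Total tumor. Its differences were 3.85 (0.000287), 4.20 (0.000254) and 2.19 (0.00657). No library of another group reached the TAM level of either gene, and their calls held in all 20 alternatives.

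CD74 at the surface also serves as a receptor for the cytokines MIF and DDT, with CD44, CXCR4 and CXCR2 as partners. Of these 5 genes 2 were higher in TAM than in Fibroblast, 2 than in LLC, and 1 higher and 1 lower than in Total tumor (median log2 1.17, 0.62 and 0.34). Over all genes 17.4, 15.4 and 11.3% were called higher in these comparisons, and 23.9% lower than in Total tumor. The 1 of 5 lower than in Total tumor was thus no larger a share than that of all genes. Cxcr4 had 125 and 71.3 RPKM in TAM, 3.08 and 2.21 in Fibroblast, 1.11 and 4.11 in LLC and 38.1 and 12.96 in Total tumor. It differed by 4.72 (adjusted p = 0.000543), 4.86 (0.00054) and 2.03 (0.0317), the last ending without either TAM library, either Fibroblast library or Total tumor 2, at up to 0.173. Cd44 in TAM was at 81.2 and 99.3 RPKM, against 43.2 and 35.9 RPKM in Fibroblast (log2 1.17, 0.0123, ending without TAM 2 at 0.0821 or Fibroblast 2 at 0.102 and under both rescalings at up to 0.18). For Ddt, TAM had 36.5 and 24.0 RPKM and LLC 7.15 and 7.7 RPKM (log2 1.86, 0.005). Cxcr2, a neutrophil receptor, stood in TAM at 0.422 and 1.1 RPKM, against 3.51 and 5.49 RPKM in Total tumor (log2 -1.65, 0.006). Mif, the ligand, was not called between TAM and any group: it had 74.1 and 58.5 RPKM in TAM, 27.1 and 24.9 in Fibroblast, 89.5 and 77.1 in LLC and 64.0 and 236 in Total tumor.

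In Fibroblast minus LLC, no turnover gene and no further chain was called. The list medians were 0.04 for the chains, -0.70 for the promoter factors, 0.20 for the genes acting on Ciita, 0.08 for the enzymes, -0.34 for turnover, 0.79 for costimulation and -0.12 for the CD74 partners, beside -0.46 over all genes. Of the promoter factors 2 of 7 were lower, led by Nfya (log2 -0.97, adjusted p = 0.0169), and of the genes acting on Ciita 2 of 12 were higher, led by Irf4. Over all genes 13.0% were called higher and 25.7% lower in this comparison. Of the enzymes 2 of 8 were lower, led by Ctsl (-1.45, 0.0281), which had 415 and 393 RPKM in Fibroblast and 1125 and 1089.8 in LLC. Cd80, another ligand of CD28, led 2 of 5 costimulatory genes that were higher, with 7.03 and 3.98 RPKM in Fibroblast and 0 and 0.687 in LLC (2.28, 0.00619). Of the CD74 partners 1 of 5 was higher, Ddt (1.52, 0.0144), and 2 were lower, led by Mif (-1.64, 0.0429). The Irf4 call held in all 20 alternatives. That of Cd80 ended without Fibroblast 1 (0.06) or LLC 1 (0.0543), that of Nfya without Fibroblast 1 (0.121), LLC 1 (0.0798) or LLC 2 (0.0881), and those of Ctsl, Mif and Ddt without any 1 of the Fibroblast and LLC libraries, at up to 0.188. Those of Ctsl without TAM 2 (0.0519) and of Mif without TAM 1 (0.0704) or TAM 2 (0.0702) ended as well. Under upper-quartile rescaling Nfya was at -0.50 (0.221), Ctsl at -0.95 (0.0671) and Mif at -1.15 (0.104), and quantile normalization left Nfya at -0.53 (0.157). The replicate block ended the calls of Ctsl (0.0555) and Mif (0.0621).

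In Fibroblast minus Total tumor, 3 of 7 promoter factors were lower, led by Rfxank (log2 -1.05, adjusted p = 0.0278). Of 12 genes acting on Ciita, 2 were higher, led by Irf4, and 2 lower, led by Spi1 (-3.56, 0.00875). Lower too were 2 of 8 enzymes, led by Ctss (-3.26, 0.0145), 2 of 3 turnover genes, led by Cd83 (-2.39, 0.00966), 2 of 5 costimulatory genes, led by Cd86 (-2.19, 0.00116), and 4 of 5 CD74 partners, led by Cxcr4 (-2.69, 0.00968). Over all genes, 30.0% were called lower and 12.1% higher in this comparison, so that the share of enzymes called lower was no larger than that of all genes. The Cd86 and Irf4 calls held in all 20 alternatives, while those of Spi1, Ctss, Cd83, Cxcr4 and Rfxank ended without Fibroblast 1 or Fibroblast 2, at adjusted p up to 0.161. Ctss (0.0551) and Rfxank (0.0704) were also lost without Total tumor 2, and Rfxank without LLC 1 or LLC 2 (0.0522 each). Rfxank also ended under upper-quartile rescaling (-0.49, 0.216), quantile normalization (-0.56, 0.184) and the replicate block (0.0504). The list medians in the same order as before were -1.77, -0.77, -0.01, -0.98, -1.55, -0.11 and -2.20, beside -0.51 over all genes. In LLC minus Total tumor, where 2.30% of all genes were called lower, 3 list genes were called, all lower: Irf8 (-2.62, 0.0284), Cd86 (-2.10, 0.0224) and Cxcr2 (-2.26, 0.0224). All 3 calls ended without either TAM library, either Fibroblast library or LLC 1, at up to 0.149, and those of Irf8 (0.0868) and Cxcr2 (0.0552) also without Total tumor 2.

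The genes whose pattern was most like the mean of the 7 members, out of 8355 genes with a mean of at least 10 RPKM in a group, were Gpr35, Plbd1, Itgam, Cd93, Csf1r and Cd300ld, with Pearson correlations of 0.993 to 0.996 over the 8 libraries. Itgam, the integrin alpha M chain of myeloid cells, had 320.1 and 472 RPKM in TAM, 4.32 and 7.65 in Fibroblast, 1.67 and 11.96 in LLC and 53.6 and 57.7 in Total tumor. Each of the 6 was higher in TAM 2 than in TAM 1 and higher in LLC 2 than in LLC 1. The 6 were picked by their likeness over these same libraries, so this is not a separate result. The ranking describes 8 libraries of 4 groups, and many genes high in TAM come close to it: the gene ranked 12, Was, had 0.990.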

How the data were processed

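RNA of 8 libraries, 2 each of TAM, Fibroblast, LLC and Total tumor, was made from 200 ng of total RNA by poly(dT)-primed synthesis and read at 50 bp, per the labels' protocols. The authors deposited 1 table of RPKM for 31645 transcripts. The submitters' processing notes name STAR, HOMER and mm9, without versions; strandedness and the treatment of shared reads are not stated there. Raw counts were not used here, so no count test was run. Depth was estimated from the steps between low RPKM values, of which 58.2 to 62.5% came out whole within 0.05 reads, too few to recover counts.

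The 7 genes and all gene lists were chosen with earlier results of these data known. All 8 libraries were fitted together with limma 3.58.1 in R 4.3.3 on log2(RPKM + 1), with a variance trend, for 13311 genes at 1 RPKM or more in at least 2 libraries. With 4 residual degrees of freedom, the 6 comparisons were adjusted by Benjamini-Hochberg over all genes tested, and 0.05 was the threshold. The fit was tested on simulated data. Of each pathway list, up to 2 called genes per direction with the largest differences were named in the TAM comparisons and up to 1 in the others; further chains of the class II locus were named in any case. Some genes that these rules would name are not reported here. The 20 alternatives per gene changed the pseudocount, filter, scaling, trend, samples, replicate block, transcript choice and fold threshold. A correction for transcript length was added after the data had been seen.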

Additional observations from a re-analysis of the deposited data

How the results depend on the processing

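With 2 libraries per group each comparison rests on few degrees of freedom, and the low levels of Ciita rest on few reads; counting error is not modelled because only RPKM was used. A library left out leaves its group with 1 library, which is then assumed to vary like the others. Across the 6 comparisons and 20 alternatives, 688 member results kept direction and side of the threshold, 134 lost their call, 9 gained one and 9 changed sign. For TAM against Fibroblast and against LLC, 6 to 7 members were called without 1 library at a time. For TAM minus Total tumor (6 members called), the count was 0 with no filter, 3 with quantile normalization, 3 with only the 2 groups compared and 0 to 6 without 1 library at a time. For Fibroblast minus Total tumor (6 called) it was 1 with no filter, 1 with upper-quartile rescaling and 0 to 6 without 1 library at a time. For LLC minus Total tumor (5 called) it was 1 with a pseudocount of 0.1, 1 with a pseudocount of 5, 0 with no filter, 0 with upper-quartile rescaling, 2 with quantile normalization, 0 with only the 2 groups compared, 2 with the length correction and 0 to 6 without 1 library at a time. For Fibroblast minus LLC (0 called) it was 0 to 4 without 1 library at a time. With no filter more genes were tested, and with only the 2 groups fewer samples were fitted. The cause of the lower counts was not tested for these settings, nor for the rescalings, the pseudocounts or the length correction. The 9 changes of sign were all in Fibroblast minus LLC, where no member was called. Without LLC 1 the log2 differences were -0.0273 for H2-Aa, -0.19 for H2-Ab1, -0.38 for H2-Eb1, -0.63 for H2-DMa, -0.37 for Cd74 and -0.13 for Ciita; without LLC 2 they were 2.09, 2.18, 1.92, 0.67, 2.38 and 0.37 in the same order of genes. H2-DMa was also at -0.0204 with a pseudocount of 5 and at -0.23 without Fibroblast 2, and Ciita at -0.14 with quantile normalization.

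The labels number the libraries 1 and 2 in each group, and the estimated depth was higher in library 1 of every group. Deviations from the group means of same-numbered libraries were correlated over genes. Among sorted groups the values were 0.162 (TAM and Fibroblast), 0.274 (TAM and LLC) and 0.206 (Fibroblast and LLC). With Total tumor they were -0.361 (TAM), -0.179 (Fibroblast) and -0.232 (LLC). The labels do not say what the numbers stand for, and the main fit did not use them. With the replicate block, 7, 7, 6, 0, 6 and 5 members were called in TAM minus Fibroblast, TAM minus LLC, TAM minus Total tumor, Fibroblast minus LLC, Fibroblast minus Total tumor and LLC minus Total tumor, the counts without it. The block did end some calls of list genes, and those among the calls printed in the report are given beside them. Rescaling moved the median of all genes, and the median of the members did not always move in the same direction: in TAM minus LLC the median of all genes was -0.38 as deposited, -0.21 with upper-quartile rescaling and -0.15 with quantile normalization, beside member medians of 5.83, 6.03 and 5.39. Over all genes, TAM minus Total tumor had 1509 called higher (937 with no filter, 629 with only the 2 groups) and 3181 lower (2055 with quantile normalization, 1276 with only the 2 groups). Fibroblast minus LLC had 3416 lower (1480 with upper-quartile rescaling, 5230 with only the 2 groups). Fibroblast minus Total tumor had 3988 lower (2641 with no filter, 1760 with upper-quartile rescaling, 2428 with quantile normalization, 2003 with only the 2 groups). LLC minus Total tumor had 7 higher (4 with a pseudocount of 5, 2 with a filter of 5 RPKM, 0 with only the 2 groups) and 306 lower (176 with a pseudocount of 5, 7 with no filter, 197 with upper-quartile rescaling, 0 with only the 2 groups). Without 1 library at a time, LLC minus Total tumor had 0 to 928 higher and 0 to 1492 lower, the highest without Total tumor 1, and 0 of either without TAM 1, Fibroblast 1, Fibroblast 2 or LLC 1. The other ranges that passed 1.5 times were 1382 to 3328 higher in TAM minus Fibroblast, 1956 to 4843 lower in TAM minus LLC, 773 to 1869 higher and 1612 to 4121 lower in TAM minus Total tumor, 1132 to 5104 lower in Fibroblast minus LLC and 1264 to 5109 lower in Fibroblast minus Total tumor.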

Other observations

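T cell markers, a list not limited to the CD4 T cells that read class II, were scarce in every sorted population. Their sum over 8 genes was 8.93 and 13.6 RPKM in TAM, 2.68 and 3.45 in Fibroblast, 2.78 and 4.45 in LLC and 39.8 and 8.22 in Total tumor. All 8 were lower in Total tumor 2 than in Total tumor 1, at a median ratio of 0.148, while 6 of the 7 class II genes were higher there. Of 13 dendritic cell markers, 9 were higher and 4 lower in TAM 2 than in TAM 1. Among the higher were the chemokines Ccl17 (3.89 and 6.57 RPKM in TAM 1 and TAM 2) and Ccl22 (6.13 and 14.8 RPKM) and the lectin Cd209a (4.43 and 14.7 RPKM). The lower were Flt3, Zbtb46, Itgae and Clec9a. Clec9a, of cross-presenting dendritic cells, had 0.357 and 0.076 RPKM. Its levels were higher in LLC (5.23 and 5.38 RPKM) and in Total tumor (5.09 and 3.88 RPKM). These genes were picked after their values had been seen, and the ratios of single libraries were not tested.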
